A study of Mus musculus with 4 samples.

Results

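Collagens and laminins are the protein chains from which most of the extracellular matrix is built. Their genes are followed here in cultured mouse cortical neurons with and without a knockdown of the mRNA decay enzyme DcpS. The members are the genes of the deposited table whose symbol has the form of a collagen chain (Col, a number, a and a number) or of a laminin chain (Lam, the letter a, b or c, and a number). This gave 55 of 32681 genes, 44 collagens and 11 laminins. They were divided into fibrillar collagens (11), the basement membrane class of collagens IV, XV and XVIII with all laminins (19), the microfibril-forming collagen VI chains (6) and all other collagens (19).

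The RNA came from primary neuron cultures of the neocortex of wild-type CD-1 mouse embryos at embryonic day 13, a time before birth when cortical neurons are being made. The 2 control libraries came from cultures transfected with a control shRNA (a short hairpin RNA that enters the RNA interference pathway), and the other 2 from cultures given an shRNA against DcpS, an enzyme that hydrolyses the cap structure left over after an mRNA has been degraded from its 3′ end. The library titles name a single DcpS hairpin, and the share of cells that took up either hairpin is not given in the sources used here. Whether the libraries of a group stem from different litters is not stated, so the p-values refer only to the spread among these libraries, and that spread may be technical.

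Fibrillar collagens assemble as triple helices into the cable-like fibres of connective tissue, while collagen IV forms a sheet-like network in the basement membrane. Laminins are heterotrimers of an alpha, a beta and a gamma chain that polymerise next to that network and bind cell surface receptors. In the developing cortex the basement membrane under the meninges anchors the end feet of radial glia, and another surrounds blood vessels. Meningeal fibroblasts, endothelial cells and pericytes are the best known sources of these chains in the embryonic brain, and neural progenitors also express several of them.

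Recovered reads per library ran from 17754768 to 21793685, so that a count of 0 allows up to 3 reads, or 0.138 to 0.169 CPM (reads scaled to the library total), a limit that covers counting error only. All values below are normalised read counts, that is, reads divided by a size factor for each library, unless CPM is named. The neuron markers Tubb3, Map2 and Dcx lay between 19013 and 26693 in every library, and each non-neuronal marker list had reads as well. Replicates were not copies of each other: their read counts gave a chi-square of 2.04 per degree of freedom for the control pair and 3.73 for the DcpS shRNA pair. Dcps itself stood at 499.8 and 507 in the controls and at 114 and 119.6 with DcpS shRNA, which is 23.3% of the control mean (log2 fold change −2.10, SE 0.11; limma, Benjamini-Hochberg adjusted p 1.52e-08).

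The cultures with DcpS shRNA held less collagen RNA. Summed over the 44 collagen genes, the level fell from 1495 and 1569 CPM in the controls to 994 and 923 CPM with DcpS shRNA, and the mean normalised sum was 62.6% of the control mean. The 11 laminins together took 279 and 289 CPM in the controls and 267 and 237 CPM with DcpS shRNA, or 88.7% of the control mean. In these bulk samples fewer cells of a type and less RNA per cell cannot be told apart.

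Of the 55 members, 49 passed the filter on low counts and were tested, and 22 of them were lower and 1 was higher with DcpS shRNA. The threshold was a Benjamini-Hochberg adjusted p of 0.05 from limma over 18110 genes. Over all genes tested, 3.65% were called lower, 2.14% higher and 5.79% in either direction. The median log2 fold change was −0.51 for the tested members and 0.00 for all genes tested. In 31 of the 49 tested members both DcpS shRNA libraries lay below both controls, an arrangement seen in 24.0% of all genes tested, and in 4 both lay above (24.4% of all genes tested). edgeR's quasi-likelihood test on the recovered reads also called 22 members lower (3.85% of all genes tested) and DESeq2 called 19 (1.72%). The 22 lower members comprised 6 of 11 tested fibrillar chains, 8 of 18 basement membrane chains, 3 of 4 tested collagen VI chains and 5 of 16 other collagens.

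**Figure D1:**
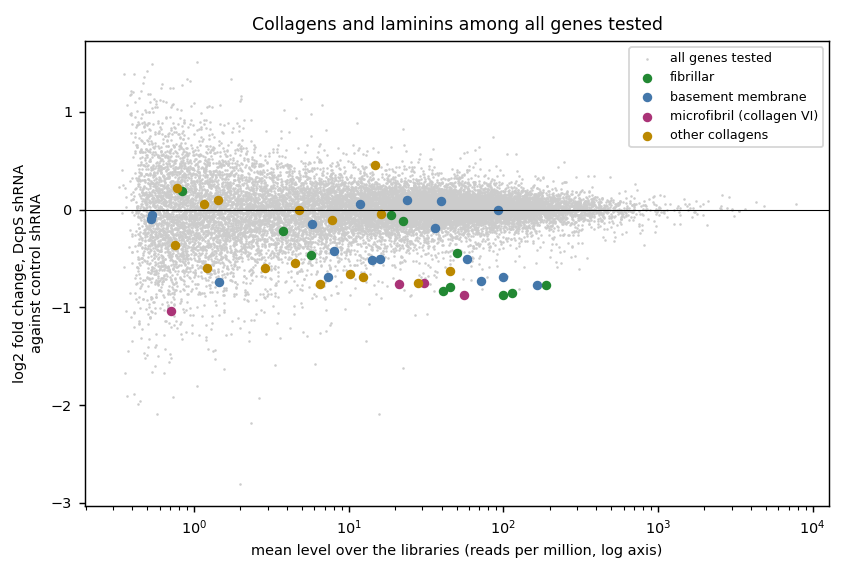
Each point is a gene; the horizontal axis is its mean level over the 4 libraries in CPM on a log scale, and the vertical axis its log2 fold change with DcpS shRNA. Grey points are all 18110 genes tested and coloured points tested collagens and laminins by class; the most abundant collagens, such as Col3a1 (−0.77) and Col1a1 (−0.87), lie well below 0.

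**Figure D2:**
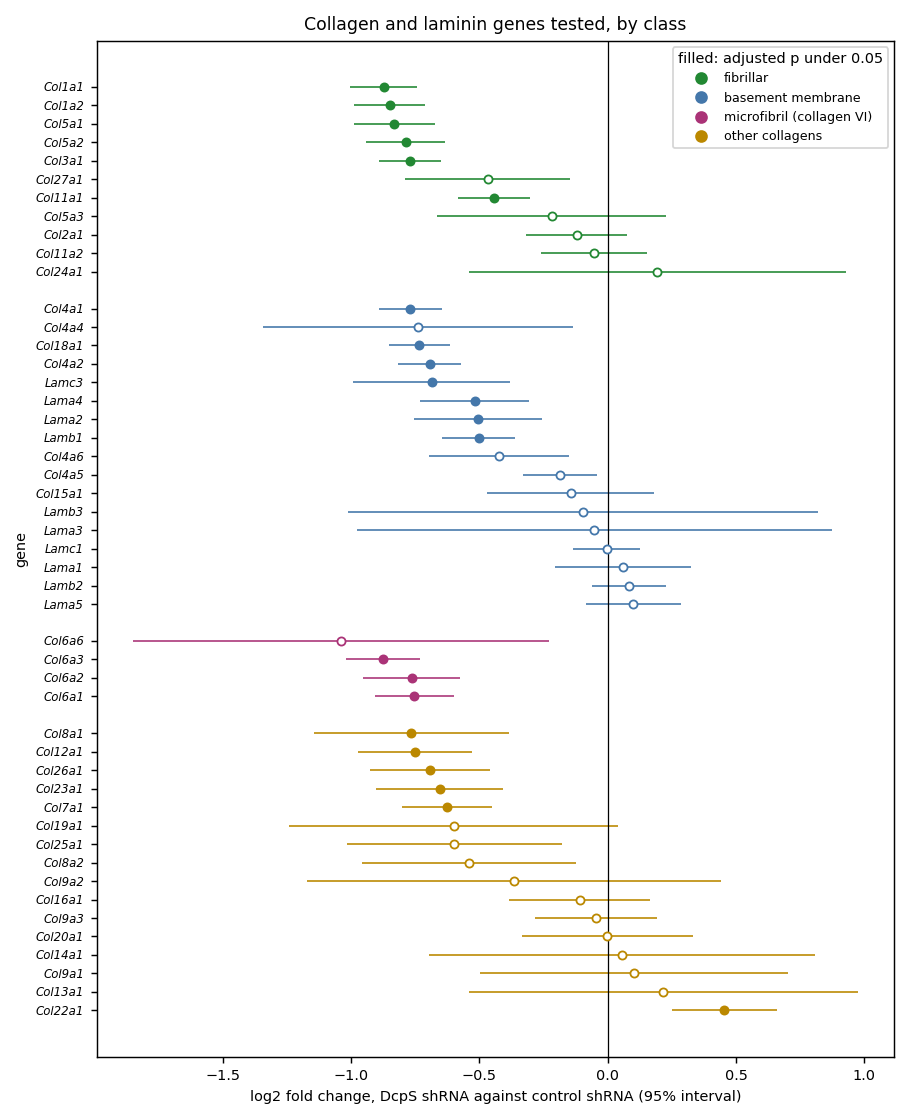
The log2 fold change of tested collagen and laminin genes with its 95% interval from limma, grouped by class and sorted within it; filled points passed an adjusted p of 0.05. Filled points to the left of 0 are lower members and the single filled point to the right is Col22a1.

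Short words shared with the Dcps transcript occur in the 3′ untranslated region (UTR) of some members. The 7-base words ACGTGCA and CACGTGC, which overlap in the 8 bases CACGTGCA, were known from an earlier look at these data to be frequent among lower genes. The hairpin's own sequence is not given in the sources used here. Over all tested genes with an annotated 3′ UTR (GENCODE M21), 17.2% of the 1301 with a word in any annotated transcript were called lower, against 3.38% of the 12500 without. Among the members 8 of 55 carried a word, and 5 of these 8 were lower, with a median log2 fold change of −0.76. Of the 41 tested members without a word, 17 were lower and 1 higher, with a median of −0.42. The sites are given as RNA-sense sequence of the longest annotated 3′ UTR, written with T, with the words in capitals, so that each can be compared with the site in Dcps.
Dcps, chr9:35124756-35124763, minus strand: actatcacctgCACGTGCAtttcacagctc
Col12a1, chr9:79600159-79600166, minus strand: ttcactctgcaCACGTGCAcatggaaataa
Col12a1, chr9:79601091-79601097, minus strand: agatgtttgcgCACGTGCttattagaaaa
Col6a6, chr9:105688173-105688180, minus strand: gggggatgagcCACGTGCAgtaactttttt
Col4a1, chr8:11201719-11201725, minus strand: acggcagaggaACGTGCAattactacgca
Lamc3, chr2:31945598-31945604, plus strand: gtactctctaaACGTGCAtcagcatacac
Col5a1, chr2:28037481-28037487, plus strand: atgtcattccaCACGTGCctttccgatgg
Col5a2, chr1:45375276-45375282, minus strand: attttctaacaCACGTGCccagtaatgaa
Col4a4, chr1:82450699-82450705, minus strand: ctattagaacaCACGTGCcttgctacata
Col19a1, chr1:24264611-24264617, minus strand: ggcttcacaacCACGTGCtctcaaggctt
Coordinates are those of the capitals in GRCm38. The 8 bases CACGTGCA as a whole were present in Col12a1 and Col6a6, as in Dcps, and the other members had 7 of them. Whether these words bear on the levels of the members was not tested.

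Of the 11 fibrillar collagens 6 fell, among them the member with the most reads, and Col1a1, Col1a2, Col3a1, Col5a1 and Col5a2 fell by similar amounts. Collagen I is the main fibre of bone, skin and meninges, and is a trimer of a pair of alpha-1 chains with a single alpha-2 chain. Col1a1 (chromosome 11, 94936224 to 94953042) was at 2484 and 2652 in the controls and at 1475 and 1331 with DcpS shRNA, and its mean went from 2568 ± 119 to 1403 ± 102 (SD, n = 2 per group). Col1a2 (chromosome 6, 4504814 to 4541544) was at 2683 and 3086 in the controls and at 1643 and 1553 with DcpS shRNA. Both chains were well below both controls in each DcpS shRNA library, with log2 fold changes of −0.87 (SE 0.06) and −0.85 (SE 0.07) and adjusted p of 6.72e-07 and 1.02e-06 (limma, Benjamini-Hochberg).

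Collagen III accompanies collagen I in soft tissues and is the ligand of the radial glial receptor Adgrg1 (GPR56) at the cortical surface. Col3a1 (chromosome 1, 45311538 to 45349706), the member with the most reads, was at 4454 and 4943 in the controls and at 2786 and 2719 with DcpS shRNA. Its log2 fold change was −0.77 (SE 0.06; limma, Benjamini-Hochberg adjusted p 9.01e-07), and the DcpS shRNA mean was 58.6% of the control mean. Col5a2, which starts fibres together with Col5a1, lies 24.6 kb downstream of Col3a1 on the opposite strand, and was at 1054 and 1210.1 in the controls and at 667 and 641 with DcpS shRNA. Col5a1, on chromosome 2, was at 1023 and 1059 in the controls and at 626 and 546 with DcpS shRNA. These collagen V chains fell by 0.79 (SE 0.07) and 0.83 (SE 0.07) on the log2 scale, and both are among the members with a 3′ UTR word.

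Promoters of a pair of these fibrillar genes are shown because their transcripts fell together. Each window runs from 250 bases before to 50 bases after the RefSeq start (GRCm38.p6, plus strand), and capitals mark every match, on either strand, to any of 3 common promoter words. These were TATAAA, which binds the core transcription machinery, then CCAAT, which nuclear factor Y recognises, and the Sp1-type word GGGCGG.
Col1a2, chr6:4505368-4505667: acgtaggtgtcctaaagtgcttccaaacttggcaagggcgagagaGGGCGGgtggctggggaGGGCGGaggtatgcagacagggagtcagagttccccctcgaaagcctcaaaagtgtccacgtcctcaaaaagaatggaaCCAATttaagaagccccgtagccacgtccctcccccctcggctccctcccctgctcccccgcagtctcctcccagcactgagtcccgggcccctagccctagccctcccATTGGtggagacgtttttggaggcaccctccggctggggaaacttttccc
Col3a1, chr1:45311288-45311587: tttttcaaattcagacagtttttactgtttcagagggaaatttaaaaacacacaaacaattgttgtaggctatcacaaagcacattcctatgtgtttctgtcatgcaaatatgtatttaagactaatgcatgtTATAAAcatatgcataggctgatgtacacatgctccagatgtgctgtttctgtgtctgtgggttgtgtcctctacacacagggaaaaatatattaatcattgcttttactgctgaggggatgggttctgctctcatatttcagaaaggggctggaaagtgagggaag
The Col1a2 window holds matches to GGGCGG and CCAAT, and the Col3a1 window a match to TATAAA upstream of the annotated start. Of all 32851 RefSeq promoter windows, 13.6% hold TATAAA, 37.4% CCAAT and 35.7% GGGCGG. A match is a description of these letters only.

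The cartilage-type fibrillar chains gave a mixed picture. Col11a1, which also occurs outside cartilage, was at 1154 and 1147 in the controls and at 894 and 800.1 with DcpS shRNA, a smaller estimate than those of Col1a1, Col1a2, Col3a1, Col5a1 and Col5a2, a difference that was not tested (log2 fold change −0.44, SE 0.07; limma, Benjamini-Hochberg adjusted p 0.000682). Col2a1, the main cartilage collagen, was at 498 and 426 in the controls and at 438 and 409 with DcpS shRNA, so that the groups overlapped (−0.12, 95% interval −0.32 to 0.07). Col11a2, its partner in cartilage fibres, was at 399 and 360.0 against 392 and 341, also overlapping (−0.05, 95% interval −0.26 to 0.15). Col27a1 was at 139.7 and 123 in the controls and at 99.9 and 89.4 with DcpS shRNA, without overlap, but did not pass (−0.47, SE 0.15; limma, Benjamini-Hochberg adjusted p 0.0881). The remaining fibrillar chains, Col5a3 and Col24a1, were tested at means under 5 CPM and were not called.

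In the basement membrane class 3 of 7 tested collagens and 5 of 11 laminins were lower. Collagen IV alpha-1 and alpha-2, the pair found in nearly all basement membranes, fell together. Col4a1 was at 4014 and 4206 in the controls and at 2529 and 2298 with DcpS shRNA, and Col4a2 at 2374 and 2469 against 1564 and 1432. Neither gene's groups overlapped, and the log2 fold changes were −0.77 (SE 0.06) for Col4a1, which has a 3′ UTR word, and −0.69 (SE 0.06) for Col4a2, which has none (limma, Benjamini-Hochberg adjusted p 9.01e-07 and 2.45e-06).

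These genes lie head to head on chromosome 8, Col4a1 on the minus strand (11198423 to 11312826) and Col4a2 on the plus strand (11312805 to 11449287). Their RefSeq starts are 21 bases apart and each lies inside the other gene, so that the first bases of the transcripts overlap and reads there can be assigned to a gene only by strand. The stretch common to both promoter windows is shown because the pair fell together; it is the plus strand, and the 22 bases from start to start are in capitals.
Col4a1 and Col4a2, chr8:11312777-11312854: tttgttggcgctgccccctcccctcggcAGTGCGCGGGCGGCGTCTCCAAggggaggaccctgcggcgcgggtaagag
Other collagen IV chains, which are typical of specialised basement membranes, did not pass the test. Col4a5, on the X chromosome, was at 772 and 757 in the controls and at 671 and 673 with DcpS shRNA (−0.19, 95% interval −0.33 to −0.04; limma, Benjamini-Hochberg adjusted p 0.134). Col4a6, its head-to-head neighbour with a start 1343 bases away, was at 192 and 174 against 142 and 131 (−0.42, 95% interval −0.70 to −0.15; limma, Benjamini-Hochberg adjusted p 0.0685). In both, the DcpS shRNA libraries lay below the controls.

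Collagen XVIII, whose C-terminal fragment is endostatin, links the basement membrane to the tissue beneath it. Col18a1 was at 1795 and 1756 in the controls and at 1077 and 1058 with DcpS shRNA, and the log2 fold change was −0.73 (SE 0.06; limma, Benjamini-Hochberg adjusted p 1.02e-06). Its relative Col15a1 was at 113 and 127 in the controls and at 118 and 99.5 with DcpS shRNA, with overlapping groups (−0.14, 95% interval −0.47 to 0.18).

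Of the 11 laminin genes 5 fell and 6 did not pass the test. Lamb1, the beta chain of most embryonic laminins, was at 1337 and 1349.6 in the controls and at 1009 and 891 with DcpS shRNA (log2 fold change −0.50, SE 0.07; limma, Benjamini-Hochberg adjusted p 0.00021). Lama4, the alpha chain of vessel walls, was at 326 and 333 in the controls and at 235 and 225 with DcpS shRNA (−0.52, SE 0.10). Lama2, the alpha chain of muscle and peripheral nerve that is also made in brain vessels and meninges, was at 371 and 367 against 298 and 226 (−0.51, SE 0.12). The call of Lama2 was lost without DcpS shRNA 2 (limma, Benjamini-Hochberg adjusted p 0.0980) and under DESeq2 (0.0845).

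Lamc3, a gamma chain of the brain and retina, has a 3′ UTR word and was at 199.5 and 162 against 118 and 105 (−0.69, SE 0.14; limma, Benjamini-Hochberg adjusted p 0.0089). The call of Lamc3 was lost on leaving out control 1 (adjusted p 0.0683 by limma) and under DESeq2 (0.0623). Lama3 and Lamb3, chains of epithelial laminins, lay between 8.18 and 13.3 in all 4 libraries, with overlapping groups and wide 95% intervals (−0.98 to 0.87 and −1.01 to 0.82).

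No call was made for the alpha-5, beta-2 and gamma-1 chains, which can assemble together, or for Lama1. Lamc1, the gamma chain of most laminins and the most abundant laminin gene per length of exon, was at 1781 and 1879.8 in the controls and at 1928 and 1725 with DcpS shRNA (log2 fold change 0.00, 95% interval −0.14 to 0.13). Lamb2 was at 767 and 766 in the controls and at 840.4 and 784 with DcpS shRNA (0.08, 95% interval −0.06 to 0.23). Lama5 was at 441 and 478 against 522 and 463 (0.10, 95% interval −0.09 to 0.28), and Lama1, an early embryonic and meningeal alpha chain, at 210.0 and 251 against 263 and 218 (0.06, 95% interval −0.20 to 0.33). The intervals of Lamc1, Lamb2 and Lama5 do not reach the falls seen in Lamb1, Lama4 and Lama2.

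**Figure D3:**
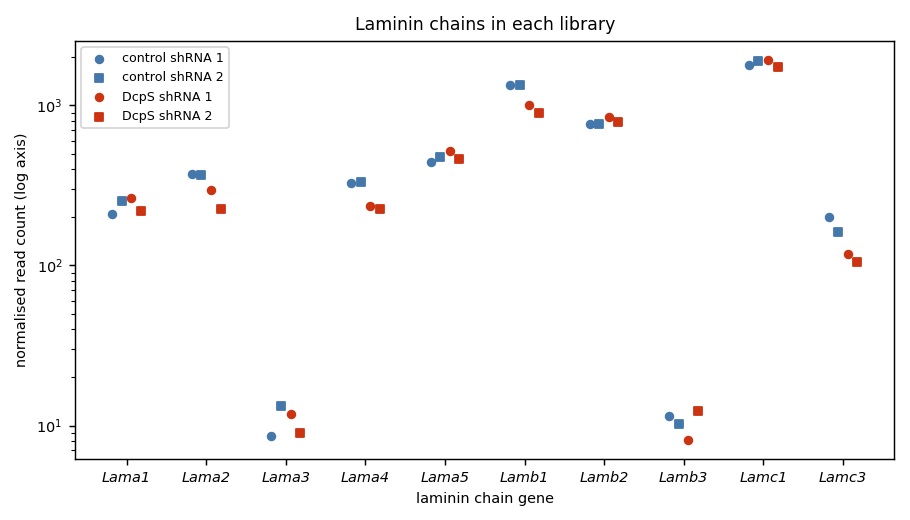
Normalised read counts of the laminin chain genes named in the text on a log axis, 1 point per library, with control shRNA in blue and DcpS shRNA in red. Lama2, Lama4, Lamb1 and Lamc3 show both red points below both blue points, while those of Lama1, Lama3, Lama5, Lamb3 and Lamc1 overlap and those of Lamb2 lie just above.

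Ratios within a library restate this contrast without any scaling between libraries. Each sets a lower chain against a chain that was not called, in the same libraries, so it adds no separate support. The count ratio of Lamb1 to Lamb2 was 1.74 and 1.76 in the controls against 1.20 and 1.14 with DcpS shRNA. The ratio of Lama4 to Lama5 was 0.739 and 0.697 in the controls against 0.450 and 0.486 with DcpS shRNA. Groups did not overlap in either ratio, but with 2 libraries against 2 an exact two-sided permutation test cannot give a p below 0.333.

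Collagen VI forms beaded microfibrils at the border between basement membranes and loose matrix, each monomer having 1 chain of alpha-1, 1 of alpha-2 and 1 of a longer chain such as alpha-3. All 3 of these chains fell. Col6a3 (chromosome 1) was at 1446 and 1429 in the controls and at 836 and 735 with DcpS shRNA (log2 fold change −0.87, SE 0.07; limma, Benjamini-Hochberg adjusted p 1.03e-06). Col6a1 was at 769.6 and 765 in the controls and at 449 and 460.4 with DcpS shRNA, and Col6a2, 85.2 kb away on chromosome 10 and on the same strand, at 559 and 505 against 305 and 319.6. Their log2 fold changes were −0.75 (SE 0.07) and −0.76 (SE 0.09), and no groups overlapped. Col6a6, an alternative long chain with a 3′ UTR word, was at 19.0 and 19.5 against 9.99 and 7.82 and did not pass (−1.04, SE 0.38; limma, Benjamini-Hochberg adjusted p 0.141). The 2 remaining chains, Col6a4 and Col6a5, were at 6.36 or less in each library and were not tested.

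Members outside these classes included 5 that fell. Col7a1, the anchoring fibril collagen that ties epithelial basement membranes to the stroma, was at 1091 in both controls and at 782 and 637 with DcpS shRNA (log2 fold change −0.63, SE 0.08; limma, Benjamini-Hochberg adjusted p 0.000223). Col12a1, a fibril-associated collagen of dense connective tissue that carries both 3′ UTR words, was at 656 and 748 in the controls and at 467 and 369.9 with DcpS shRNA (−0.75, SE 0.10; limma, Benjamini-Hochberg adjusted p 0.000528). In both genes each DcpS shRNA library lay below both controls.

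Col26a1, a secreted collagen-domain protein, was at 300.3 and 308 in the controls and at 199.9 and 177 with DcpS shRNA (−0.69, SE 0.11; limma, Benjamini-Hochberg adjusted p 0.00103). Col23a1, a transmembrane collagen, was at 238 and 254 against 161 and 151 (−0.65, SE 0.12; limma, Benjamini-Hochberg adjusted p 0.00259). Col8a1, a network-forming collagen of vessel walls and of the corneal basement membrane, was at 142 and 186 against 80.0 and 113 (−0.76, SE 0.18). The call of Col8a1 was lost on leaving out control 2 (adjusted p 0.0753 by limma) and under DESeq2 (0.0694).

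Col22a1 was the only member called higher. It encodes a fibril-associated collagen of tissue junctions such as that between muscle and tendon, and was at 248 and 247 in the controls and at 341 and 339 with DcpS shRNA. Replicates agreed closely and the groups did not overlap (log2 fold change 0.45, SE 0.10; limma, Benjamini-Hochberg adjusted p 0.00974), but DESeq2 did not call it (0.0957). Col9a3, a chain of the cartilage collagen IX, was at 367 and 287 against 313 and 316 (−0.05, 95% interval −0.28 to 0.19), and Col16a1, another fibril-associated collagen, at 163 and 160.0 against 158 and 142 (−0.11, 95% interval −0.38 to 0.16).

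**Figure D4:**
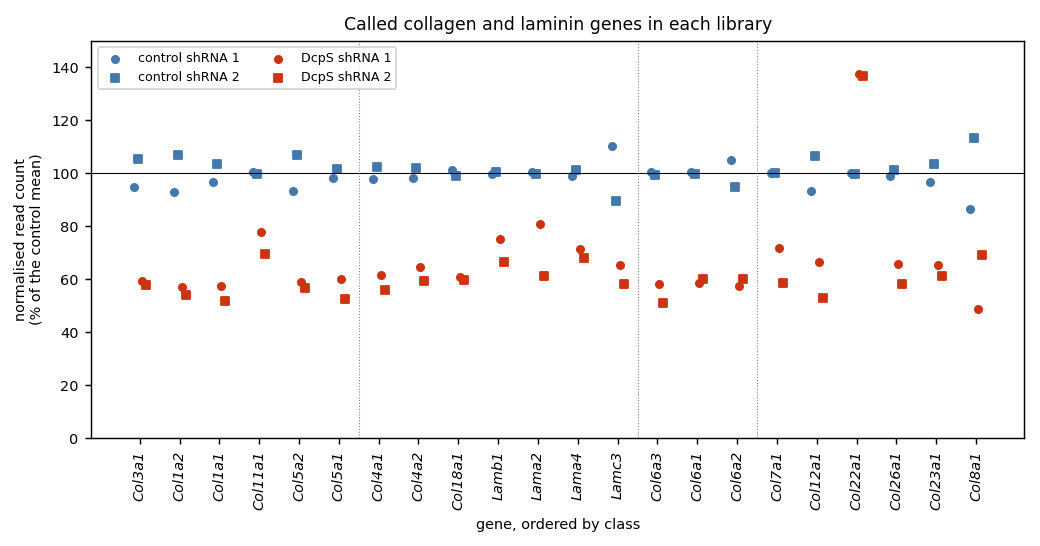
Normalised read count of called members in each library as a percentage of its control mean, with control shRNA in blue and DcpS shRNA in red and dotted lines between the fibrillar, basement membrane, collagen VI and other classes. The red points lie above both blue points in Col22a1 and below them in the other genes plotted.

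The other tested members of this last class had means under 5 CPM and were not called: Col8a2, Col25a1, Col19a1, Col9a2, Col20a1, Col14a1, Col9a1 and Col13a1. Of these, Col25a1 (70.3 and 67.7 against 48.2 and 42.5), Col8a2 (83.6 and 130.2 against 73.6 and 69.3) and Col19a1 (27.6 and 30.8 against 22.7 and 15.6) had both DcpS shRNA libraries below the controls, with adjusted p of 0.0960, 0.136 and 0.306 (limma, Benjamini-Hochberg). Col13a1 had both above (16.2 and 12.3 against 16.4 and 16.8), and the groups of the others overlapped. Col4a4, which has a 3′ UTR word, was at 38.0 and 33.8 against 17.3 and 25.7 and was not called either (0.164). The members that did not pass the filter were Col4a3, Col6a4, Col6a5, Col10a1, Col17a1 and Col28a1, and none exceeded 16.2 in any library.

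Among 34 tested genes for prolyl and lysyl hydroxylation, folding, export, processing and cross-linking, which together build collagen, 2 were lower and 1 was higher (3.65% and 2.14% over all genes tested), with a median log2 fold change of −0.12. Fkbp14, a prolyl isomerase of the endoplasmic reticulum whose 3′ UTR holds both words, was at 176 and 173 in the controls and at 102 and 106 with DcpS shRNA (−0.74, SE 0.13). Loxl1, a lysyl oxidase that cross-links elastic fibres, fell by 0.47 (SE 0.11) on the log2 scale, and Ppib, the cyclophilin of the prolyl 3-hydroxylation complex, rose by 0.23 (SE 0.06). The call of Loxl1 was lost without control 1 or DcpS shRNA 2 (adjusted p 0.0736 and 0.0820, limma) and that of Ppib without control 2 (0.424), and DESeq2 called neither. The summed level of the list was 1076 and 1077 CPM in the controls and 1031 and 1045 CPM with DcpS shRNA.

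Basement membrane partners held 5 lower and 0 higher calls among 14 tested genes, against 3.65% and 2.14% over all genes tested. Their median log2 fold change was −0.23 (limma, 0.05 adjusted threshold as before). Nidogens bridge laminin and collagen IV: Nid1 was at 689 and 671 in the controls and at 495 and 527 with DcpS shRNA (−0.41, SE 0.07), and Nid2 fell by 0.37 (SE 0.09). Npnt, an integrin ligand of basement membranes, was at 182 and 175 against 101 and 91.6 (−0.89, SE 0.14), and the Fraser complex genes Fras1 and Frem2 fell by 0.40 (SE 0.07) and 0.62 (SE 0.14). The call of Nid2 was lost without control 1 or DcpS shRNA 2 (adjusted p 0.0514 and 0.114, limma) and that of Frem2 without control 2 (0.140), and DESeq2 called neither.

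Of 17 tested collagen and laminin receptors, 2 were lower and 1 higher (3.65% and 2.14% over all genes tested), with a median of −0.07. Itga1, which pairs with integrin beta-1 to bind collagens I and IV and has a 3′ UTR word, was at 170.1 and 195 in the controls and at 83.6 and 68.2 with DcpS shRNA (−1.26, SE 0.15), and Itgb1 itself was at 3779 and 3931 against 2626 and 2659 (−0.54, SE 0.05). Adgrg1, the collagen III receptor of radial glia, was at 4478 and 4239.5 in the controls and at 4907 and 5196 with DcpS shRNA (0.21, SE 0.05; limma, Benjamini-Hochberg adjusted p 0.0272), a call lost without control 1 (0.0545), without control 2 (0.325) and under DESeq2 (0.0530).

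Some markers of other cells were lower too, and their part in the results was not tested. The shares to set beside each count of markers are 3.65% lower and 2.14% higher over all genes tested. Of the called markers named here, Tbx18, Acta2, Gja1 and Syt1 have a 3′ UTR word. Of 15 tested meningeal fibroblast markers that are not matrix genes, 2 were lower and 0 higher: the growth factor receptor Pdgfra (148 and 153 against 102 and 92.8) and the transcription factor Tbx18 (104 and 131 against 60.9 and 55.9). DESeq2 called Tbx18 but not Pdgfra (0.158). That list's sum was 129 and 143 CPM in the controls and 116 and 117 CPM with DcpS shRNA. Of its tested genes without a call, Aldh1a2, Foxc1, Twist1, Islr and Cdh11 had both DcpS shRNA libraries below both controls. Crabp2 had both above. In the others the groups overlapped, as in Prrx1, a mesenchymal transcription factor (270 and 304 against 268 and 304). Of 10 tested pericyte and smooth muscle markers 2 were lower. These were Pdgfrb (506 and 534 against 329 and 304) and Acta2 (77.0 and 90.2 against 23.6 and 19.0). Notch3 (601 and 616 against 699 and 660.4) and Tagln (13.3 and 17.4 against 21.8 and 22.3) had both DcpS shRNA libraries above the controls. Rgs5 (27.6 and 19.5 against 9.09 and 8.94) and Abcc9 (34.2 and 22.6 against 16.4 and 13.4) had both below. So did Anpep (64.6 and 63.6 against 52.7 and 55.9). Notch3, Tagln, Rgs5, Abcc9 and Anpep were not called, and the groups of the other tested markers of this list overlapped. The sum was 80.9 and 80.2 CPM against 70.6 and 67.4 CPM.

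Endothelial markers summed to 33.9 and 37.3 CPM in the controls and to 23.2 and 23.9 CPM with DcpS shRNA. Of 7 tested genes 2 were lower, where 3.65% of all genes tested were lower and 2.14% higher. The lower genes of this list were the VEGF receptor Kdr and the transporter Slco1c1, which alone gave 459.9 and 486 against 286 and 294. Of the list's 14 genes, 11 had means under 1 CPM. Whether Kdr and Slco1c1 stem from endothelial cells in these cultures was not tested. Cldn5 was at 0 in 1 library of each group and at 1.90 or less in the others. Pecam1, another endothelial marker, was at 5.70 and 12.3 against 20.0 and 14.5, above the controls but not called (0.93, 95% interval 0.0090 to 1.86). Eng (23.8 and 26.7 against 11.8 and 12.3) and Esam (20.0 and 18.5 against 12.7 and 14.5) lay below the controls. They were not called either, and the groups of Cdh5 and Egfl7 overlapped. Choroid plexus markers summed to 285 and 295 CPM against 217 and 233 CPM, with Ttr and Aqp1 lower among 6 tested. Kcne2 lay above both controls without a call (42.8 and 40.0 against 59.1 and 57.0). Folr1 (122 and 138 against 96.3 and 90.5) and Otx2 (166 and 153 against 124 and 112) lay below both without a call. The groups of Clic6 overlapped. Astrocyte markers summed to 637 and 633 CPM against 621 and 625 CPM, with 4 lower (Aqp4, Gfap, Gja1 and Slc4a4) and 1 higher (Aldoc) of 10, and microglia markers to 19.7 and 19.4 CPM against 18.1 and 20.2 CPM, with 0 of 9 called. Neuron markers summed to 5574 and 5501 CPM in the controls and to 5335 and 5270 CPM with DcpS shRNA. Of 15 tested, 2 were lower (Snap25 and Syt1) and 2 higher (Rbfox3 and Slc17a7). Median log2 fold changes of the tested markers were −0.21 for meningeal fibroblasts, −0.16 for pericytes and smooth muscle and −0.59 for endothelium. They were −0.41 for choroid plexus, −0.32 for astrocytes, −0.12 for microglia and −0.03 for neurons.

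Several of these marker calls rested on single libraries (limma, adjusted p). Without control 2 the calls of Kdr (0.251), Gfap (0.212), Aqp1 (0.279) and Rbfox3 (0.318) were lost, and without DcpS shRNA 1 that of Aqp1 (0.145). Those of Aldoc (0.132) and Syt1 (0.0506) were lost without control 1 and also without control 2 (0.205 and 0.333), and that of Snap25 (0.0692) without control 1. Pdgfrb, Acta2, Tbx18, Slco1c1, Gja1, Slc4a4, Ttr and Slc17a7 were called with any 1 library left out. DESeq2 did not call Kdr, Aqp4, Aqp1, Rbfox3 or Syt1.

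**Figure D5:**
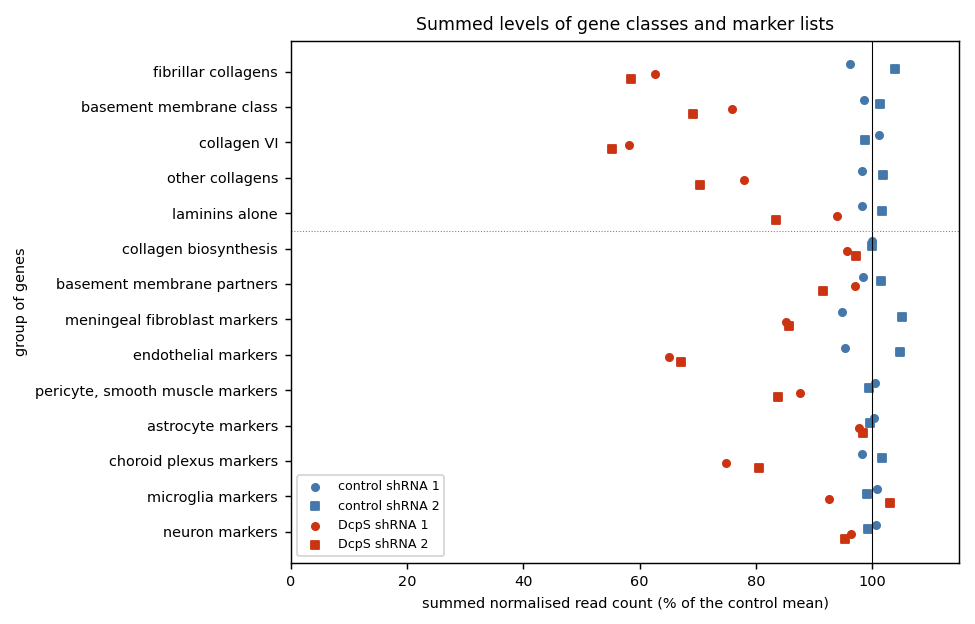
Summed normalised read counts of each class of members (above the dotted line) and of gene lists (below it) in each library, as a percentage of the control mean, with control shRNA in blue and DcpS shRNA in red. Fibrillar collagens and collagen VI lie at 60.6% and 56.8% of the control mean on average. Meningeal fibroblast markers lie at 85.5%, endothelial markers at 66.1% and neuron markers at 95.8%. Single genes weigh heavily in such sums. In the control means, Slco1c1 gave 473 of 705 for the endothelial list and Cdh11 gave 1417 of 2698 for the meningeal fibroblast list. Ttr gave 5108 of 5745 for the choroid plexus list.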

How the data were processed

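RNA sequencing of 4 libraries gave a table with 1 column per library. The deposited values are a signal made by the authors: gene counts divided by a size factor for each library. Within a column all values are whole multiples of 1 step, from which whole reads were recovered for 100% of values (tolerance 0.001). Per the submitters' processing notes, HISAT2 2.2.0, SAMtools 1.3.1, Picard, featureCounts and DESeq2 were used with GRCm38; how strand and multi-mapped reads were treated is not given there. Median-of-ratios scaling would hide a shift of all transcripts together.

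Genes were kept by edgeR's filterByExpr (minimum count 10) and tested across all genes with limma 3.58.1 on log2(value + 1), using limma's trended, robust variance moderation and no covariate beside the group. Calls were two-sided at an adjusted p (Benjamini-Hochberg) under 0.05; such fold changes understate changes of low genes. R was 4.3.3; edgeR 4.0.16 and DESeq2 1.42.0, run on the recovered reads, were alternatives, as were other pseudocounts, filters and scalings, the replicate block, each library left out and genes with a 3′ UTR word left out. The fit was also run on simulated counts with the same spread in both groups, which does not cover the unequal spread of these library pairs.

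The members and lists (collagen biosynthesis, basement membrane partners, receptors, mesenchymal regulators, and markers of meningeal fibroblasts, endothelium, pericytes and smooth muscle, astrocytes, microglia, choroid plexus and neurons) were chosen with earlier results of these data known. Named with values were members that were called or had a mean of at least 5 CPM, some others chosen after their values were seen, and up to 6 called genes of each list; 1 member that entered the counts and sums is not reported here or plotted. Positions and exon lengths are from GENCODE M21 (GRCm38); of the members, 40 have a RefSeq promoter window.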

Additional observations from a re-analysis of the deposited data

How the results depend on the processing

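Of the 22 members called lower, 19 were called lower under each of the 15 alternatives that gave them a value; the exceptions were Lama2, Lamc3 and Col8a1. The count of lower members ran from 17, with the genes that have a 3′ UTR word left out and so fewer members tested, to 25 with the replicate block in limma. Left-out libraries gave 21 to 24. DESeq2 called 0 members higher (1 at an unadjusted p under 0.05, where limma and edgeR called 1). The number of all genes called moved from 1048 to 453 with DESeq2, 1626 with the replicate block in limma and 691 without the word genes, and ranged from 747 (without control 2) to 1745 (without DcpS shRNA 1) with 1 library left out. The members' median moved from −0.51 to −0.42 without the word genes and ranged from −0.55 to −0.39 with 1 library left out. With 1 library left out, the sign changed for members that were not called: Lama1 ranged from −0.076 to 0.20, Col11a2 from −0.15 to 0.047, Col9a3 from −0.22 to 0.13 and Lamc1 from −0.084 to 0.076. The cause of these shifts was not tested. The titles number the libraries of each group as set 1 and set 2, and do not say whether a set was shared between groups. Deviations of same-numbered libraries had a correlation of 0.0407 over 17824 genes. The replicate block called Col4a6 and Col27a1 in addition, in limma also Col8a2 (Benjamini-Hochberg adjusted p 0.0325). A lone library in a group is assumed to vary like the other group. Low counts limit Lama3, Lamb3, Col9a2, Col13a1, Col14a1 and Col24a1, whose intervals span a fall and a rise.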

Other observations

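Per kilobase of annotated exon, the ratios between chains of the same molecule overlapped between the groups in some pairs and not in others. Whether the pairs differ in this was not tested. The exon lengths pool all annotated transcripts of a gene, so these levels depend on the annotation and do not give the proportions of chains. Col1a1 to Col1a2 was 1.75 and 1.63 in the controls against 1.70 and 1.62 after DcpS shRNA, so the groups overlapped. Col1a1 lay above Col1a2 only through its shorter length, 6.563 kb against 12.426 kb. By read count their ratio was 0.926 and 0.859 against 0.898 and 0.857. Per kilobase, Col6a1 to Col6a2 was 2.62 and 2.88 against 2.79 and 2.74, again overlapping. Col5a1 to Col5a2 was 1.10 and 0.989 against 1.06 and 0.962, also overlapping. Col6a3 to Col6a1 was 0.688 and 0.684 against 0.682 and 0.585 without overlap (−0.12 on the log2 scale), and Col4a5 to Col4a6 was 4.78 and 5.15 against 5.61 and 6.11 without overlap (0.24). The count ratio of Col4a1 to Col4a2 was 1.69 and 1.70 against 1.62 and 1.61 (the lengths cancel between groups), without overlap and with a difference of −0.08 on the log2 scale. Levels per kilobase placed Col4a1 first (551 in the controls), followed by Col3a1 (479), Col1a1 (391) and Col4a2 (366), with Lamc1 (221) the leading laminin. With 2 libraries a group, none of these ratios can reach an exact permutation p below 0.333.

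Transcription factors of mesenchymal cells gave 2 lower and 0 higher calls among 12 tested (3.65% and 2.14% over all genes tested). Their median log2 fold change was −0.36. Runx1, known from blood and mesenchymal lineages, stood at 25.7 and 35.9 in control libraries against 12.7 and 11.2, and the other lower gene was Tbx18. The call of Runx1 was lost without control 2 (limma, Benjamini-Hochberg adjusted p 0.333). Zeb1 and Zeb2, which neural cells also express, made up most of the list's sum, 341 and 365 CPM against 368 and 346 CPM.

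A GC box (GGGCGG on either strand) was present in 13 of 17 promoter windows of members called lower (76.5%). It was present in 11 of 22 windows of members tested and not called lower, and in 35.7% of all windows. For CCAAT the shares in the same order were 41.2%, 22.7% and 37.4%, and for TATAAA 5.88%, 9.09% and 13.6%. The windows of all genes include genes that were not tested here. Some genes have more than 1 window, and the windows of Col4a1 and Col4a2 share 78 bases that hold a GGGCGG counted for both, so these shares are a description without a test.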
